A study of Mus musculus with 4 samples.

Results

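Interferon-stimulated effector genes were examined in sorted lung cells with and without a conditional deletion of Dnmt1, as labelled, the enzyme that copies DNA methylation onto the new strand after replication. The set of 38 genes was chosen by name as typical targets of interferon signalling, with earlier results of these data known. Each of the 38 names matched 1 of the 31247 rows of the count table. The RNA came from GFP positive cells of Pdgfrb-GFP reporter mice, taken from lungs on postnatal day 7, with 300000 to 350000 cells per sample. The labels give 2 wild-type samples (WT, labelled as wild type PDGFRb-GFP) and 2 conditional knockout samples (CKO), whose label lists PDGFRb-GFP, Tbx4-rtTA, Tet-O-Cre and Dnmt1-D/D. All 4 samples carry the GFP reporter, and the WT label names no rtTA or Cre. Recombination in CKO depends on Tbx4-rtTA, a driver of lung mesenchyme, and the timing of its induction is not given in the sources used here. Pdgfrb is expressed by pericytes as well as myofibroblasts, so the sort can hold both.

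The libraries are named by genotype and a letter in column order, which carries no pairing. They held between 23071657 and 26420648 counted reads, so that 1 read corresponded to 0.0377 to 0.0439 CPM (reads per 1e6 counted, with TMM scaling). Dnmt1 stood at 144 (A) and 115 (B) CPM in the WT libraries and at 78.1 (A) and 29.5 (B) in the CKO libraries, and the difference did not pass (log2 change -1.27 ± 0.57 (SE), edgeR adjusted p = 0.31). The authors' deposited table lists it as lower (log2 change -1.23, adjusted p = 0.029). In the edgeR fits here with 1 CKO library left out it passed, at an edgeR adjusted p of 3.82e-05 without CKO A and 0.0401 without CKO B. WT B had reads on 27643 genes against 21883 to 22532 in the others. CKO A held 2494 reads of the Y-linked gene Ddx3y and also 4310 reads of Xist, which female cells express, while the other 3 libraries held 0 reads of Ddx3y. The column name of WT A lacks a number that the other 3 have in common, and its meaning is not given in the sources used here. Col1a1, a fibroblast collagen gene, was at 9880 to 19362 CPM and Pdgfrb, the gene behind the sort, at 507 and 477 CPM in WT and 374 and 317 in CKO (edgeR adjusted p = 0.0546). They belong to a list of 10 mesenchymal markers, which was mixed. The log2 change lay above 0 for 7 and below 0 for 3. At an unadjusted edgeR p under 0.05, 2 were higher and 3 lower in CKO, where 13.1% and 12.1% of tested genes were. The summed level of the list was 65165 and 65665 CPM in WT A and WT B and 75495 and 87598 in CKO A and CKO B. The protocol names 2 lungs of each genotype and does not say whether they came from separate litters, so p-values rest on the spread of 2 libraries a group. In bulk RNA, fewer expressing cells and less RNA per cell cannot be told apart.

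Interferons bind receptors that signal through JAK kinases. Type I interferon assembles ISGF3, a complex that includes Stat2 and Irf9 and binds the interferon-stimulated response element (ISRE), whereas interferon gamma acts mainly at gamma-activated sites (GAS). The induced genes encode proteins that block steps of viral replication, sense foreign nucleic acid or amplify the response. Loss of DNA methylation is known from other systems to raise endogenous retroviral transcripts, whose double-stranded RNA can start this response.

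RefSeq promoter windows on GRCm38.p6, from 250 bases before to 50 after the annotated start, were found for 29 of the 38 genes. The letters of an ISRE core (GAAA, any 2 bases, then GAAA, on either strand, with overlapping matches allowed) occurred in the windows of 18 of the 29 genes (62.1%), against 3.99% of the 27025 genes in that table and 3.53% of those tested here. The letters of a GAS, TTCNNNGAA, occurred in 6 of the 29 (20.7%), against 9.55% of all genes with a window. Of the 7 genes that were called higher in CKO, 5 had the core letters, as did 13 of the other 22. The windows held few CpG dinucleotides, with a median of 6 for the 29 genes and 22 for the tested genes (the window with the most, where a gene has several), beside 8 for all genes with a window. A match of letters describes the sequence and shows no binding.

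The upstream stretches below show the core letters in capitals, with 25 bases on each side where these lie before the start. They are the 5 called genes with a match, the near-identical pair Ifit3 and Ifit3b, Oas1a as a gene with the motif and almost no reads, and Stat2 as a tested member that was not called in the main fit.
Isg15 (chr4:156200850-156200921, minus strand): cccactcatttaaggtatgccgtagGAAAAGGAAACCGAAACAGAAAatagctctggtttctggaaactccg
Ifit1 (chr19:34640760-34640838, plus strand): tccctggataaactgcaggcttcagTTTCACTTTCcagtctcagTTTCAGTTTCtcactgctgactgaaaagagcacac
Ddx60 (chr8:61928009-61928086, plus strand): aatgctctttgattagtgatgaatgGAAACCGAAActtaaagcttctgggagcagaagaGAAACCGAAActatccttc
Bst2 (chr8:71537562-71537627, minus strand): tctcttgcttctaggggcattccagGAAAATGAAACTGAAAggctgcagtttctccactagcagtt
Cxcl10 (chr5:92349068-92349127, minus strand): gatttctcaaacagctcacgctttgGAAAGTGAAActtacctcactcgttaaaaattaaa
Ifit3 (chr19:34583348-34583441, plus strand): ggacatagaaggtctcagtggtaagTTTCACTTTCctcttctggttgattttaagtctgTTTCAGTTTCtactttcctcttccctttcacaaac
Ifit3b (chr19:34607744-34607837, plus strand): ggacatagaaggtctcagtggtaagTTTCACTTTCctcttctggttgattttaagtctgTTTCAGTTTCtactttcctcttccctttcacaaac
Oas1a (chr5:120907526-120907570, minus strand): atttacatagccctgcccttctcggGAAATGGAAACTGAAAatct
Stat2 (chr10:128270251-128270310, plus strand): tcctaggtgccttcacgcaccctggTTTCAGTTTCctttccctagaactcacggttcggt
In Isg15 3 matches overlap in a single run, and in Bst2 and Oas1a 2 matches do. The stretches of Ifit3 and Ifit3b are identical over 94 of 94 bases, and that of Oas1g is identical to that of Oas1a over 43 of 43 bases.

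**Figure D1:**
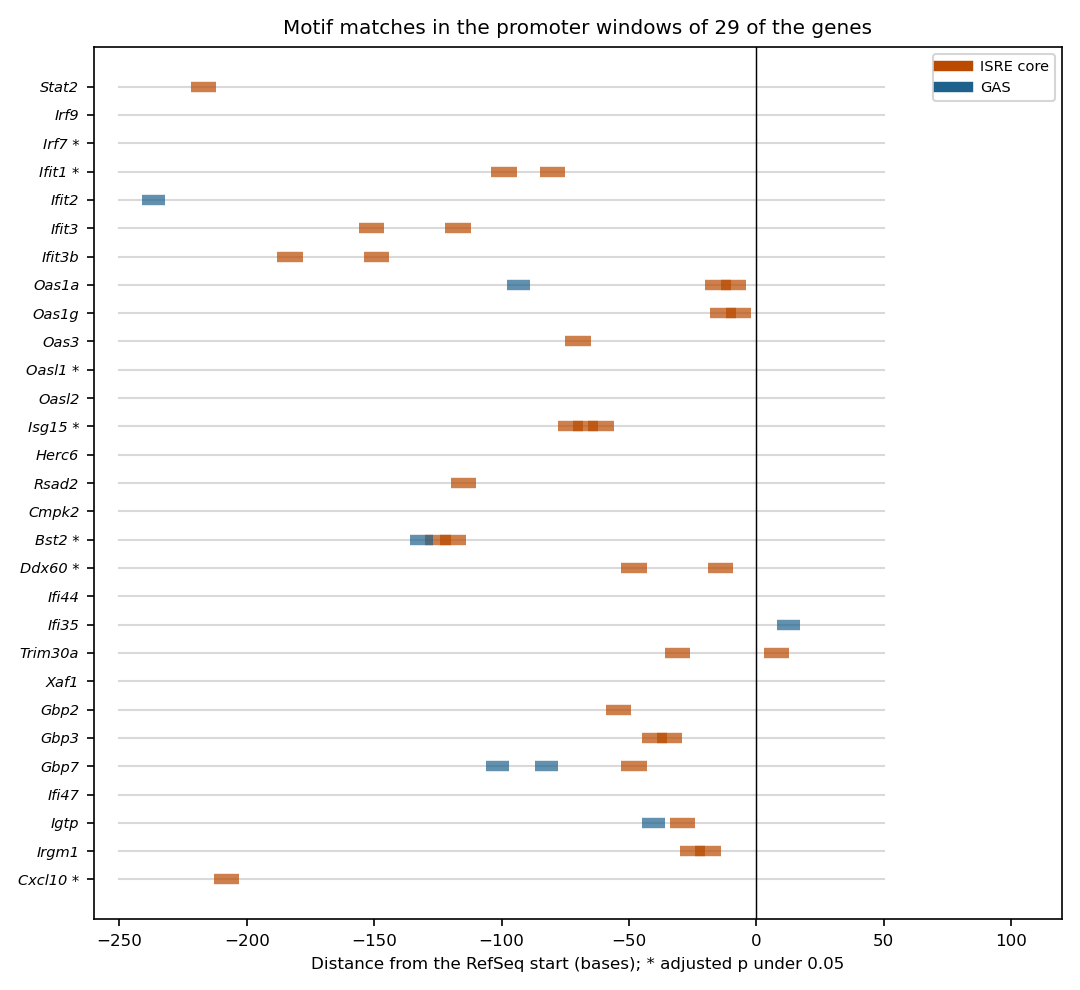
Matches of the ISRE core (orange) and the GAS (blue) in the promoter windows of 29 genes, by distance in bases from the RefSeq start, with an asterisk on the 7 genes called higher in CKO. Of the 7, Irf7 and Oasl1 show no match, and the core matches in Ifit1, Isg15 and Ddx60 begin between -104 and -19.

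A small group of these genes rose steeply in CKO, while the RNA of Stat2 and Irf9, subunits of ISGF3, was not called in either direction in the main fit. Isg15, Oasl1, Ifit1 and Ddx60, antiviral genes with few reads in WT, were 24.7-fold, 17.9-fold, 10.9-fold and 7.73-fold higher, and Bst2, Irf7 and Cxcl10 were 2.87-fold, 2.43-fold and 2.32-fold higher. Of the 38 genes 32 had enough reads to be tested, 7 rose and 0 fell (edgeR, adjusted p under 0.05), where 4.85% of the 15210 tested genes rose and 2.75% fell. At an unadjusted p under 0.05, 17 were higher and 0 lower, where 13.1% and 12.1% of tested genes were. Of the 7 called genes, 3 (Irf7, Bst2 and Cxcl10) reached the minimum read count of the filter in both WT libraries, and 4 passed it through their CKO reads. Of all 32 tested genes 23 reached it in both WT libraries, and 9 passed through their CKO reads. These 9 are part of the counts of tested genes and of the median given here, which tilts both toward higher values in CKO. With no filter 13 of the 38 rose, where 4.94% of 31247 genes did and 2.93% fell. The added genes were Oasl2, Rsad2, Parp9, Parp14, Gbp2 and Ifi47, which had been tested with the filter as well and had not passed. None of the genes that the filter had left out was called. The median log2 change of the 32 tested genes was 0.74, beside -0.0087 for all tested genes, and 28 of the 32 lay above 0, beside 49.1% of all. Both CKO libraries lay above both WT libraries for 23 of the 32 and below for 2, where 27.7% and 29.3% of tested genes did so.

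Calls depended in part on single libraries. Isg15, Oasl1, Ifit1 and Ddx60 were called whichever library was left out, but the size of their change moved. Isg15 was 17.9-fold higher without CKO B and 40.4-fold without WT B, Oasl1 11.5-fold without CKO B and 24.9-fold without CKO A, and Ddx60 6.64-fold without WT B and 9.25-fold without WT A. Without WT A, which leaves the libraries that share a column number, 7 genes rose (Irf7 and Cxcl10 lost their calls, Oasl2 and Gbp2 gained them), where 2.31% of genes rose and 1.33% fell. Without WT B 4 rose, beside 1.56% (0.574% fell), and Irf7, Bst2 and Cxcl10 were no longer called, Bst2 with an adjusted p of 0.0506. Without CKO A 8 rose, beside 7.88% (3.38% fell), with Rsad2 added. Without CKO B 6 rose, beside 3.8%, Cxcl10 was lost and 1 fell, Stat2, beside 2.62%. Other tools and settings gave 0 lower. DESeq2 called 8 higher (6.48% of genes, 3.77% lower), with Oasl2 added, and limma-voom 6 (3.73%, 1.85% lower). With RLE size factors 6 rose (4.61%, 2.24% lower), with library size alone 7 (4.83%, 3.64% lower) and without robust estimation 6 (4.35%, 2.08% lower). With a mean CPM of at least 1, 6 of 24 rose (4.39%, 2.46% lower), and at an adjusted p under 0.01, 5 did (1.31%, 0.276% lower). The authors' deposited table lists 7 of the 38 higher and 0 lower at an adjusted p under 0.05, beside 3.04% of its genes higher and 1.26% lower, and they are the same 7.

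**Figure D2:**
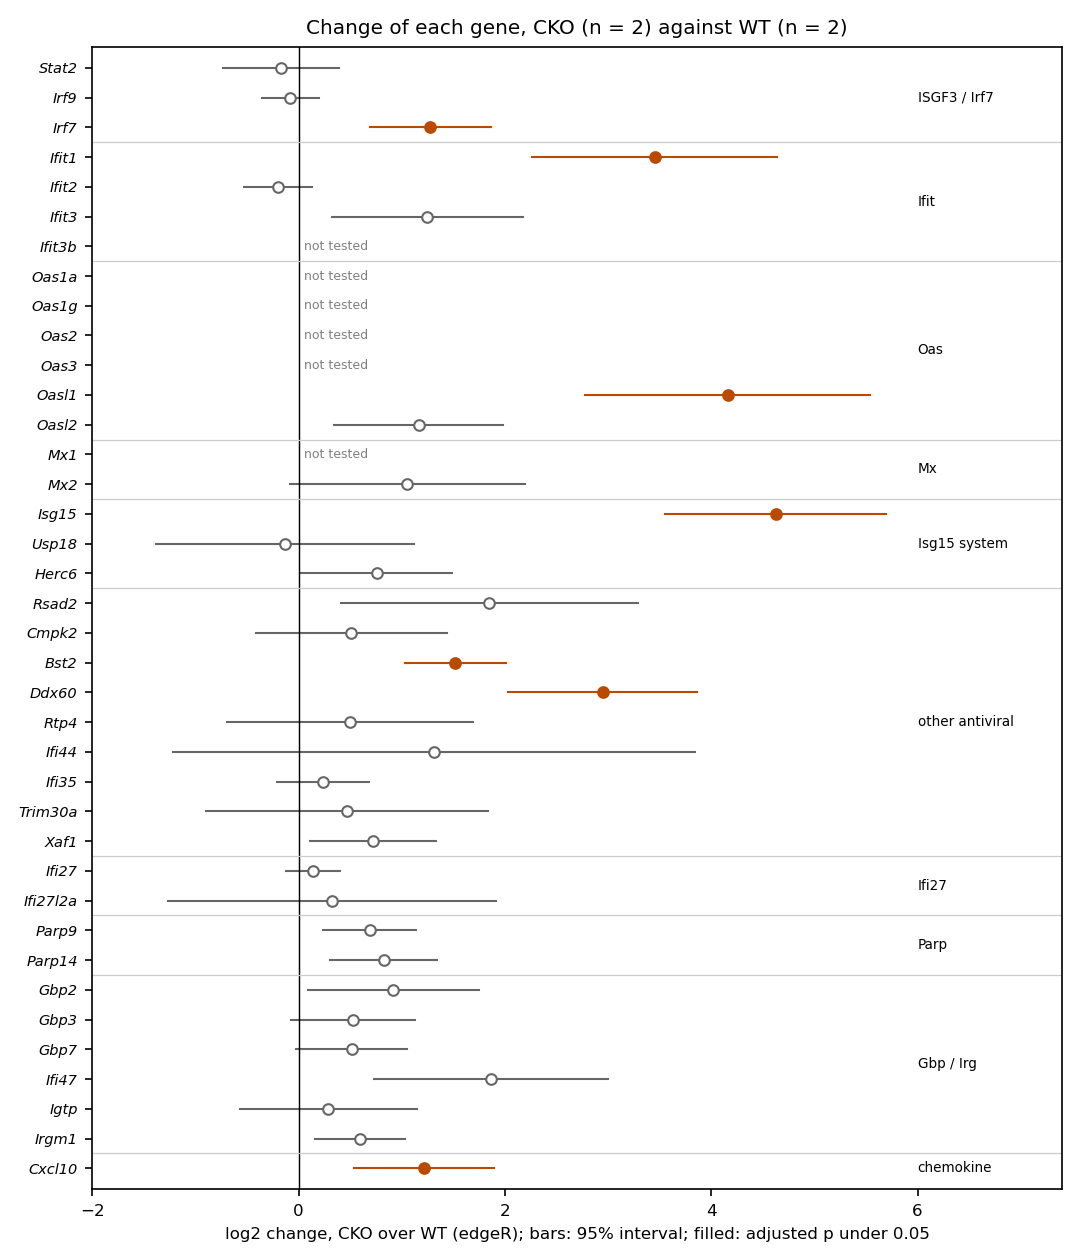
The log2 change of each gene in CKO against WT (n = 2 each), with 95% intervals from the edgeR fit, grouped by role, filled where the adjusted p was under 0.05. The 7 filled points lie between 1.22 (Cxcl10) and 4.62 (Isg15), and 6 genes had too few reads to be tested.

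The transcription factors of the pathway split. Irf7, which amplifies interferon production and is itself induced, was at 2.37 and 2.15 CPM in WT A and WT B and at 5.75 and 5.22 in CKO A and CKO B, a log2 change of 1.28 ± 0.25 (SE, edgeR adjusted p = 0.0243). Both CKO libraries lay above both WT libraries, as they did for 27.7% of all tested genes. The exons of Irf7 share 45 bases with Phrf1 on the opposite strand, which had 2188 and 2668 reads in WT and 2228 and 1898 in CKO. How many of the reads given to Irf7 came from Phrf1 was not tested. Stat2 and Irf9, the ISGF3 subunits that give it DNA binding and activation, had the second and the third highest levels per length of the 38 genes in WT. Stat2 stood at 33.2, 34.8, 22.8 and 37.7 CPM in WT A, WT B, CKO A and CKO B (log2 change -0.17, 95% interval -0.73 to 0.39, edgeR adjusted p = 0.699). CKO A alone was low, and in the fit without CKO B the log2 change of Stat2 was -0.56 (edgeR adjusted p = 0.0383). Irf9 kept to 26.5 to 29.2 CPM in the 4 libraries (log2 change -0.08, 95% interval -0.36 to 0.20, edgeR adjusted p = 0.728). It shares 123 exon bases with Rnf31 on the same strand.

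Isg15, a ubiquitin-like protein that is attached to other proteins or secreted, had the largest change of the set. It had 7 and 18 reads in WT and 236 and 373 in CKO, or 0.307, 0.679, 8.98 and 16.1 CPM in WT A, WT B, CKO A and CKO B. The log2 change was 4.62 ± 0.45 (SE, 95% interval 3.55 to 5.70, edgeR adjusted p = 0.00401). Even the lower CKO library was far above the higher WT library. The genes that handle Isg15 did not move with it to that extent. Usp18, which removes Isg15 and restrains the receptor, had 12, 14, 15 and 9 reads in the same order (log2 change -0.13, 95% interval -1.38 to 1.12, edgeR adjusted p = 0.912). Herc6, the ligase that attaches Isg15 in mice, was at 1.54, 2.04, 3.12 and 2.93 CPM and did not pass (log2 change 0.76 ± 0.32, edgeR adjusted p = 0.188). The intervals of Usp18 and Isg15 do not meet.

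The Ifit genes, whose proteins bind viral RNA ends, lie in 1 cluster of 99.3 kb on chromosome 19 and differed among themselves. Ifit1 (34640871 to 34650009, GRCm38) had 13 and 5 reads in WT and 87 and 114 in CKO, with levels of 0.571, 0.189, 3.31 and 4.92 CPM (log2 change 3.45 ± 0.51, edgeR adjusted p = 0.00958). The change was 7.19-fold without WT B and 21.4-fold without WT A, so its size rested on which WT library was used. Ifit2 (34550694 to 34576419), at the other end of the cluster, was at 17.0 and 18.4 CPM in WT and 15.9 and 14.9 in CKO (log2 change -0.20, 95% interval -0.53 to 0.13, edgeR adjusted p = 0.428). So the cluster member with the most reads in WT did not pass, while one with few reads rose. Ifit3 lay between them in size of change, with 0.790, 0.792, 2.13 and 1.64 CPM (log2 change 1.25 ± 0.40, edgeR adjusted p = 0.0998). Ifit3b was not tested and had 4, 0, 19 and 3 reads in WT A, WT B, CKO A and CKO B. Ifit3 and Ifit3b are close copies, and reads shared between them could have been split or lost in counting.

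The Oas family, whose classical members are enzymes switched on by double-stranded RNA, divided into 2 loci on chromosome 5. Oasl1, an Oas-like protein without that activity that regulates Irf7 translation, had 3 and 4 reads in WT and 44 and 83 in CKO, or 0.132, 0.151, 1.67 and 3.58 CPM (log2 change 4.16 ± 0.60, edgeR adjusted p = 0.0086). Its neighbour Oasl2 was at 4.35 and 2.04 CPM in WT and 6.62 and 7.64 in CKO and did not pass (log2 change 1.17 ± 0.35, edgeR adjusted p = 0.0892). For Oasl2 the WT libraries themselves differed, and without WT A it was called (log2 change 1.82, edgeR adjusted p = 0.0186). The enzymatic Oas genes, a cluster of 177 kb, stayed close to 0 and were not tested. Oas1a had 1, 0, 7 and 3 reads in WT A, WT B, CKO A and CKO B, a ratio of CKO to WT of 9.97 (exact 95% counting interval 1.42 to 433). Oas3 had 1, 1, 7 and 2 reads, a ratio of 4.48 (0.928 to 42.7). Oas2 had 9, 0, 5 and 10 reads, and Oas1g had 1 read in CKO A and 0 elsewhere. Such intervals cover counting error only, and at this depth no difference in Oas2 or Oas1g was detectable.

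The Mx GTPases, which trap viral nucleoproteins, were also scarce. Mx1, defective in many laboratory strains, had 0 and 1 reads in WT and 1 and 6 in CKO, a ratio of 6.98 (exact 95% counting interval 0.896 to 314). Mx2 had 9, 12, 24 and 20 reads and did not pass (log2 change 1.06, 95% interval -0.08 to 2.19, edgeR adjusted p = 0.228).

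Among the other antiviral effectors, 2 of 9 rose and 0 fell, where 4.85% and 2.75% of all tested genes did. Bst2, tetherin, which holds budding virions at the cell surface, was at 4.83 and 3.55 CPM in WT and 12.3 and 11.7 in CKO (log2 change 1.52 ± 0.21, edgeR adjusted p = 0.00792). Ddx60, a helicase linked to RNA sensing, was at 0.527 and 0.377 CPM in WT and 3.05 and 3.97 in CKO (log2 change 2.95 ± 0.40, edgeR adjusted p = 0.00688). For both genes the CKO libraries lay above the WT libraries without overlap, as they did for 27.7% of all tested genes. Rsad2, viperin, which makes a chain-terminating nucleotide, had 11, 7, 20 and 45 reads in WT A, WT B, CKO A and CKO B (log2 change 1.85 ± 0.63, edgeR adjusted p = 0.114). It was called only in the fit without CKO A, among the fits that left out a library (log2 change 2.40, adjusted p = 0.0418). Its neighbour Cmpk2, a mitochondrial nucleotide kinase gene, was at 1.67, 1.47, 1.56 and 2.93 CPM, so that only CKO B stood above WT. Xaf1, a pro-apoptotic gene, was at 2.37, 2.57, 4.07 and 4.10 CPM and did not pass (log2 change 0.73 ± 0.27, edgeR adjusted p = 0.138). Rtp4, Ifi44, Ifi35 and Trim30a did not pass, with log2 changes from 0.24 (Ifi35) to 1.31 (Ifi44). Ifi44 had 10, 0, 14 and 12 reads, and with WT B at 0 its interval ran from -1.22 to 3.84.

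The 10 genes of the Parp, GTPase and Ifi27 families had log2 changes above 0, and 0 of them passed. Of all tested genes 49.1% lay above 0 and 4.85% were called higher. Parp9 and Parp14, partners in ADP-ribosylation of antiviral signalling proteins, lie within 140 kb on chromosome 16. Parp9 was at 5.62, 5.24, 9.33 and 8.20 CPM (log2 change 0.69 ± 0.20, edgeR adjusted p = 0.0727) and Parp14 at 3.56, 3.39, 5.98 and 6.34 CPM (log2 change 0.82 ± 0.22, edgeR adjusted p = 0.0653). Neither passed. For each, both CKO libraries lay above both WT libraries, as they did for 27.7% of all tested genes. Parp9 shares 458 exon bases with Dtx3l on the opposite strand, which had 130, 120, 169 and 213 reads in WT A, WT B, CKO A and CKO B. The guanylate-binding and immunity-related GTPases, which attack pathogen-containing vacuoles and respond strongly to interferon gamma, had 0 of 6 members called. Ifi47 came closest, with 9, 9, 29 and 37 reads (log2 change 1.86 ± 0.49, edgeR adjusted p = 0.0607). Irgm1 was at 6.15, 5.81, 9.48 and 8.58 CPM (log2 change 0.60 ± 0.19, edgeR adjusted p = 0.0963), and Gbp2, Gbp3, Gbp7 and Igtp had log2 changes of 0.92, 0.53, 0.51 and 0.29. Ifi27, a mitochondrial protein gene, was the member with the most RNA per length and was at 29.5 and 32.0 CPM in WT and 34.3 and 33.6 in CKO (log2 change 0.14, 95% interval -0.12 to 0.41, edgeR adjusted p = 0.487). Its neighbour Ifi27l2a had 25, 10, 35 and 11 reads, which varied more within each genotype than between them.

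Cxcl10, a chemokine that attracts T cells and NK cells, was at 4.65 and 4.98 CPM in WT and 7.99 and 14.5 in CKO (log2 change 1.22 ± 0.29, edgeR adjusted p = 0.0475). Both CKO libraries lay above both WT libraries, as they did for 27.7% of all tested genes. The call of Cxcl10 was near the threshold and was lost without any 1 of WT A, WT B or CKO B. Cxcl10 shares 133 exon bases with Art3 on the opposite strand, and Art3 had 12 and 33 reads in WT and 184 and 257 in CKO. How many of the reads given to Cxcl10 came from Art3 was not tested.

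**Figure D3:**
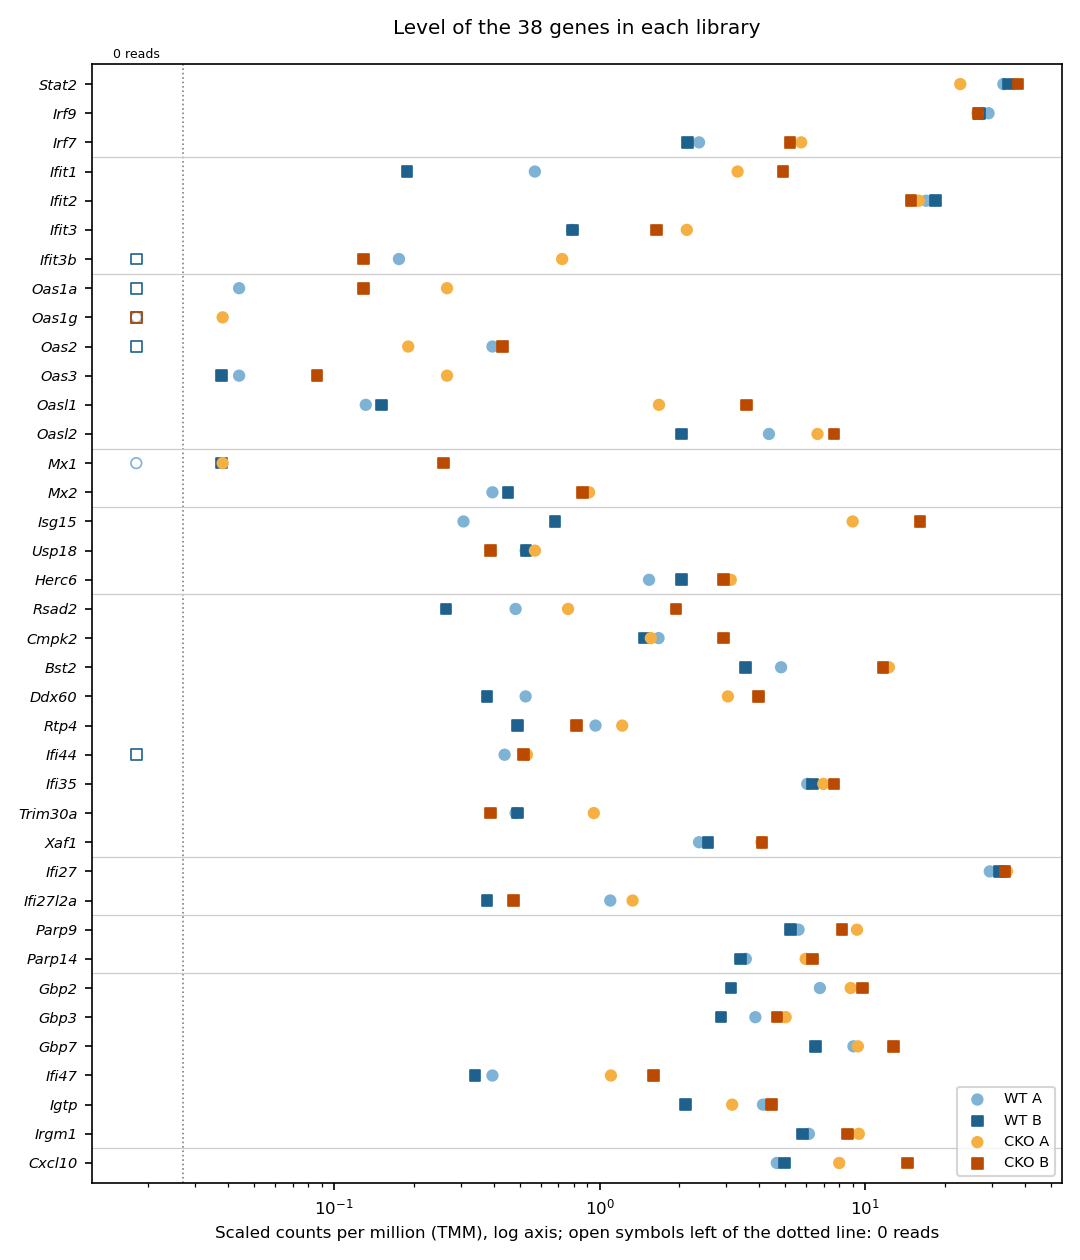
Scaled CPM of each of the 38 genes in the 4 libraries, on a log axis, with 0 reads drawn as open symbols at the left. Isg15, Oasl1, Ifit1 and Ddx60 show wide gaps between WT (blue) and CKO (orange), whereas Stat2, Irf9, Ifit2 and Ifi27 sit at 14.9 to 37.7 CPM with all libraries close together except CKO A for Stat2.

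Per length of transcript the order of the genes changed with genotype. In CPM per kilobase of merged exons, Ifi27 was highest in WT (21), followed by Stat2 (5.74), Irf9 (5.22), Bst2 (4.64) and Ifit2 (4.51). In CKO the leading genes were Ifi27 (23.1), Isg15 (16.6) and Bst2 (13.3), ahead of Stat2 (5.10), Cxcl10 (4.98) and Irf9 (4.94). Isg15 had stood at 0.652 in WT. The summed level of all 38 genes was 184 and 172 CPM in the WT libraries and 227 and 263 CPM in CKO A and CKO B.

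The 2 CKO libraries differed in Dnmt1, in reads of Ddx3y and Xist, and in summed levels of immune, endothelial and epithelial marker genes. These differences cannot be told apart. The libraries were compared with each other without a test, since each is 1 library. Among the 30 genes with at least 30 reads in the pair, 2 were at least 2-fold higher in CKO B (Rsad2 and Oasl1) and 2 at least 2-fold lower (Ifi27l2a and Trim30a). Over all tested genes with that many reads, 3.74% were at least 2-fold higher in CKO B and 1.61% lower. The exact 95% counting interval of the ratio lay above 1 for 9 of the 30 genes, below 1 for 2 and included 1 for 19. Over the 14078 tested genes with that many reads it lay above 1 for 25% and below 1 for 25.9%. The median log2 ratio was 0.047, so the set as a whole was about level between the libraries. Among the steep risers CKO B was the higher library. The ratio of CKO B to CKO A was 1.79 (1.52 to 2.12) for Isg15, 2.14 (1.47 to 3.16) for Oasl1, 1.49 (1.11 to 1.99) for Ifit1 and 1.30 (0.955 to 1.78) for Ddx60. Cxcl10 had a ratio of 1.81 (1.52 to 2.16), Rsad2 of 2.55 (1.48 to 4.56) and Cmpk2 of 1.88 (1.26 to 2.84). Bst2 and Irf7 were level, at 0.951 (0.806 to 1.12) and 0.908 (0.709 to 1.16). The lowest ratios were those of Ifi27l2a (0.356), Trim30a (0.408) and Rtp4 (0.673). Set against the WT mean, Isg15 was 18.2-fold higher in CKO A and 32.6-fold higher in CKO B, and Oasl1 11.9-fold and 25.3-fold.

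The WT libraries differed from each other as well. Of 22 genes with at least 30 reads in the WT pair, 0 were at least 2-fold higher in WT B and 3 at least 2-fold lower, where 2.28% and 0.923% of tested genes were. The 3 were Gbp2, with a ratio of WT B to WT A of 0.463 (0.35 to 0.609), Oasl2 (0.469, 0.330 to 0.659) and Ifi27l2a (0.344, 0.147 to 0.741). Ifit1, with 18 reads in the pair, had a ratio of 0.330 (0.0922 to 0.988). Ifit3b, Oas1a, Oas2 and Ifi44 had 0 reads in WT B and between 1 and 10 in WT A, although WT B had reads on more genes than any other library.

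**Figure D4:**
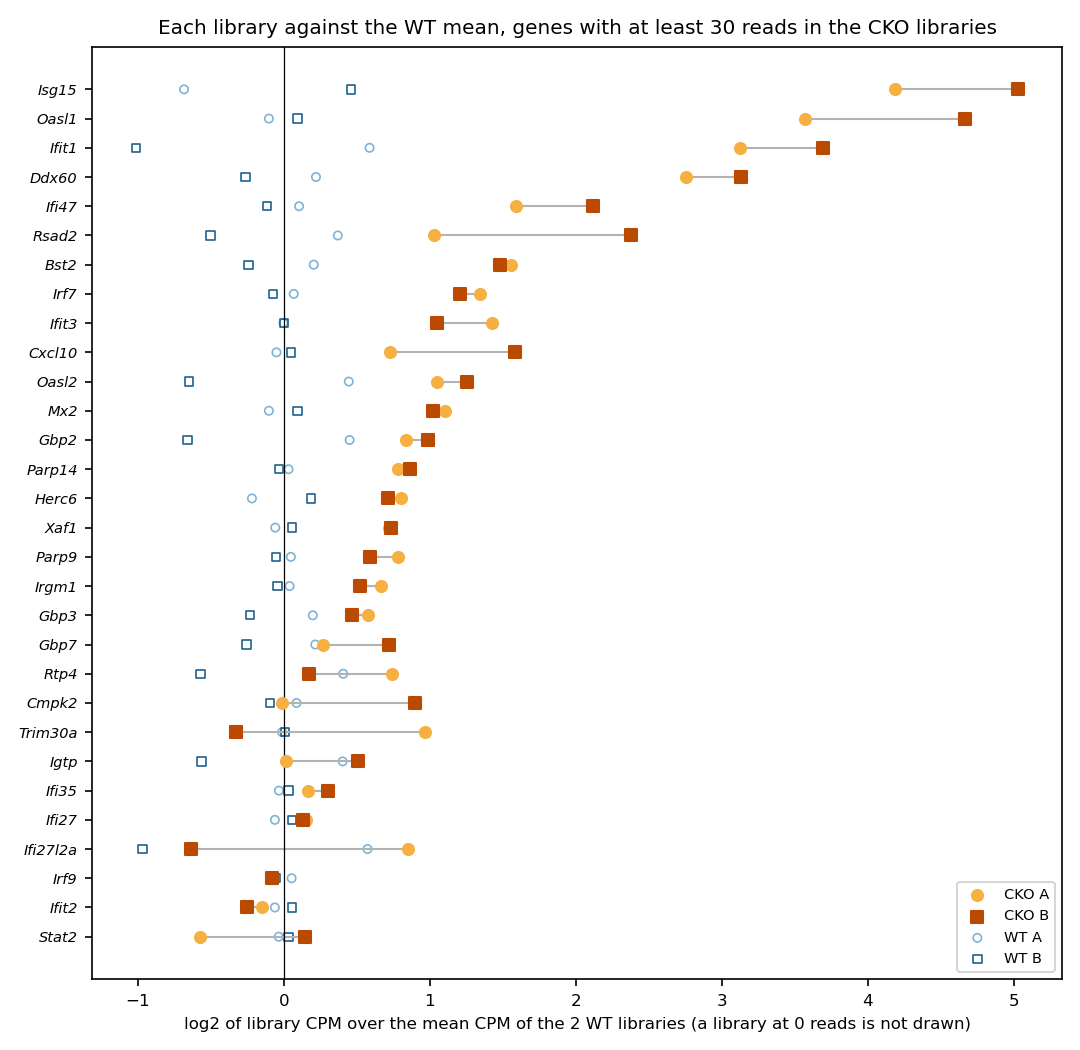
The log2 ratio of each library to the WT mean, for the 30 genes with at least 30 reads in the CKO libraries, sorted by the mean of the CKO values. Both CKO libraries lie below 0 for Irf9 and Ifit2, and CKO B (dark orange squares) lies to the right of CKO A for Isg15, Oasl1, Ifit1, Ddx60, Rsad2 and Cxcl10. The cut on CKO reads favours genes that are high in CKO, so genes above 0 are not counted here.

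Upstream in the pathway few genes were called. Of 21 interferon ligand genes 3 were listed in the table, Ifna7, Ifnab and Ifnz, with at most 6 reads in a library and none tested. Ifnz had 0, 1, 6 and 2 reads in WT A, WT B, CKO A and CKO B. Of 12 receptor, kinase and feedback genes 11 were tested and 0 passed in edgeR, with 3 higher and 1 lower at an unadjusted p under 0.05, which 13.1% and 12.1% of all tested genes reached. Ifnar1 and Ifnar2, the type I receptor chains, had log2 changes of 0.0038 (95% interval -0.26 to 0.27) and 0.17 (-0.08 to 0.42). DESeq2 and limma-voom called 0 genes of this list too. Of 7 other Irf genes 1 rose and 0 fell, where 4.85% and 2.75% of all tested genes did. The 1 that rose was Irf8, a factor known best from myeloid cells (9.54 to 10.4 CPM in WT, 15.9 to 22.9 in CKO, edgeR adjusted p = 0.029). Of the fits that left out a library, Irf8 was called only without CKO A. Irf3, which starts the response after nucleic acid sensing, did not pass (log2 change -0.32 ± 0.14, edgeR adjusted p = 0.185).

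Among 18 tested nucleic acid sensor and adaptor genes, 1 rose and 2 fell, where 4.85% and 2.75% of all tested genes did. Ifih1, the gene of the double-stranded RNA sensor MDA5 and itself interferon-induced, was at 2.37 and 1.21 CPM in WT and 7.61 and 9.53 in CKO, 4.82-fold higher (edgeR adjusted p = 0.00975). Mavs, the adaptor through which MDA5 signals, was at 24.5, 25.5, 18.2 and 15.3 CPM, 1.49-fold lower (edgeR adjusted p = 0.0495). The call of Ifih1 held whichever library was left out, and that of Mavs held only without CKO A.

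Of 55 tested interferon-stimulated genes outside the set, 9 rose and 1 fell, where 4.85% and 2.75% of all tested genes did. The median log2 change of the 55 was 0.58. How many of the 55 passed the filter only through their CKO reads is not given here, and such genes tilt the list toward higher values. Parp10, an ADP-ribosyltransferase gene, was at 2.5, 2.6, 7.69 and 8.33 CPM (log2 change 1.65 ± 0.22, edgeR adjusted p = 0.00692). Ifitm1, which blocks viral entry, was at 7.86, 8.75, 17.3 and 26.6 CPM, and Tap2, a peptide transporter subunit of antigen presentation, at 6.72, 7.36, 14.8 and 19.3 CPM, 2.64-fold and 2.42-fold higher. Ifitm3, Ube2l6 (the conjugating enzyme of Isg15), Zc3hav1 (an RNA-binding antiviral protein) and Ifi30 (a lysosomal reductase of antigen processing) were 1.54-fold, 1.57-fold, 1.51-fold and 1.5-fold higher. Gbp8, a guanylate-binding protein gene, was the member that fell, from 31 and 30 reads in WT to 5 and 5 in CKO (6.02-fold lower, edgeR adjusted p = 0.0268), and its call was lost when any 1 library was left out. The calls of Parp10 and Tap2 held whichever library was left out, that of Ifitm1 was lost without WT B, and those of Ifitm3, Ube2l6, Zc3hav1 and Ifi30 were lost without WT A and without WT B. The list's rises numbered 3 without WT B.

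Several immune cell markers were also higher in CKO. Of 24 markers 15 were tested. Of these 7 rose (Cd74, Fcer1g, Cd14, Laptm5, C1qc, C1qb and Csf1r) and 0 fell, where 4.85% and 2.75% of all tested genes did. The log2 change lay above 0 for 13 of the 15 and below 0 for 2. How many of the 15 passed the filter only through their CKO reads is not given here, and such genes tilt the list toward higher values. Both CKO libraries lay above both WT libraries for 11 and below for 2, where 27.7% and 29.3% of tested genes did so. The summed level of the list was 38.7 and 52.1 CPM in WT and 91.2 and 63.7 in CKO, higher in CKO A than in CKO B. Ptprc, the pan-leukocyte gene, was at 0.922, 1.62, 2.47 and 1.90 CPM and did not pass (edgeR adjusted p = 0.28). The T cell genes Cd3d, Cd3e and Cd8a had 0 to 6 reads per library, and Itgam had 0 to 2. Without WT A 1 marker rose, and without WT B 1. The part of such cells in the values of the interferon-stimulated genes was not tested. Of 8 endothelial and 10 epithelial markers 0 passed in edgeR, and DESeq2 and limma-voom called 0 of either. At an unadjusted p under 0.05, 1 and 0 were higher and 0 lower, where 13.1% and 12.1% of tested genes were higher and lower. The log2 change lay above 0 for 8 endothelial and 2 epithelial markers. Endothelial sums were 84.2, 124, 177 and 96.9 CPM in WT A, WT B, CKO A and CKO B, and epithelial sums 61.2, 188, 150 and 81.2. Whether such cells were equally frequent in the libraries was not tested.

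**Figure D5:**
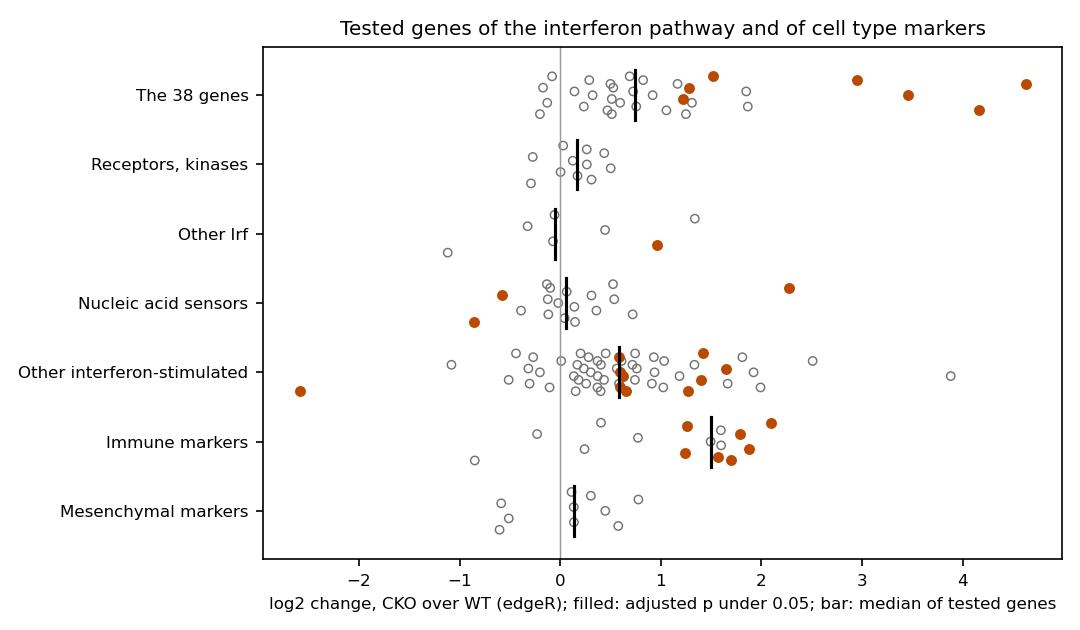
The log2 change of the tested genes of each list in CKO against WT, filled where the edgeR adjusted p was under 0.05, with the list's median as a bar. Medians are 0.74 for the set of 38 genes, 0.17 for receptors and kinases, -0.056 for other Irf genes, 0.055 for sensors, 0.58 for other interferon-stimulated genes, 1.49 for immune markers and 0.14 for mesenchymal markers. A gene can pass the filter through the reads of a single genotype, which can tilt these medians.

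By position the 38 genes fell into 9 groups of neighbours (within 300 kb of the next member), which held 23 genes, and 15 genes stood alone, on 12 chromosomes in all. Neighbours did not always have like values. Isg15 (chromosome 4, 156199424 to 156200818), Ddx60 (chromosome 8, 61928087 to 62038244), Bst2 (chromosome 8, 71534255 to 71537456), Irf7 (chromosome 7, 141262706 to 141266481) and Cxcl10 (chromosome 5, 92346638 to 92348889) were called and stood alone. Ifit1 and Oasl1 were the called genes that lay in a group, and their neighbours Ifit2, Ifit3 and Oasl2 did not pass.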

How the data were processed

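The deposited table gives raw counts of 4 libraries by gene, besides RPKM values and the log2 fold change and p-values of the authors' own test, per the file headers. The submitters' processing notes name STAR, edgeR 3.28.1, Trimmomatic 0.36, cutadapt 2.5 and FastQC 0.11.8, and the build GRCm38.p6. Which program counted the reads, and whether by strand, is not given in the sources used here. Reads of overlapping genes therefore cannot be told apart, and 14 of the 38 genes share exon bases with another gene. The lowest total of a listed gene was 1 read. The 4 columns of deposited RPKM values were not used, because for 98.5% of genes the listed length equals the exons of all transcripts added up, plus 1 base each (17361 bases for Irf7, whose merged exons span 3776). Levels per length use merged exons of GENCODE M21 on GRCm38, matched for 31171 of 31247 genes (99.8%).

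CKO was compared with WT in R 4.3.3 with edgeR 4.0.16 (filterByExpr with a minimum count of 10, TMM, glmQLFit and glmQLFTest with robust estimation), with Benjamini-Hochberg adjustment over 15210 genes and a threshold of 0.05. Standard errors are the log2 change over the square root of F. Ratios of 2 libraries carry exact binomial 95% intervals, which cover counting error only. Alternatives were DESeq2 1.42.0, limma-voom (limma 3.58.1), other scalings and filters, and leaving out each library. All 38 genes are accounted for, with values per library for called genes, the 8 uncalled genes with the lowest p, the 3 highest per length, and the extremes of the CKO ratio. In other lists the called genes are named, at most 8 per list, except that some genes are counted but not reported here by name. The genes and lists were chosen with earlier results of these data known. Genes named for a count of 5 or fewer were chosen after their values were seen.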

Additional observations from a re-analysis of the deposited data

How the results depend on the processing

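Of the 38 genes 7 rose with all 4 libraries, and Isg15, Oasl1, Ifit1 and Ddx60 were called under every alternative run. The count was 13 with no filter on low counts, 5 at an adjusted p under 0.01 and 8 in DESeq2, and 4 to 8 when a library was left out, with 0 to 1 lower. Cxcl10 lost its call in limma-voom, with RLE size factors, with a mean CPM of at least 1 and without robust estimation. The median log2 change was 0.91 over the 38 genes with no filter, and 0.61 to 1.02 over the 33 or 34 tested when a library was left out. Immune markers numbered 4 in limma-voom, 0 at an adjusted p under 0.01 and 1 to 6 when a library was left out. Other interferon-stimulated genes numbered 5 higher in limma-voom, 19 higher and 2 lower with no filter, 2 higher and 0 lower at an adjusted p under 0.01, 0 lower with a mean CPM of at least 1, and 3 to 12 higher and 0 to 1 lower when a library was left out. Sensors numbered 1 lower in limma-voom, with RLE, with a mean CPM of at least 1, without robust estimation and at an adjusted p under 0.01, 2 higher with no filter, and 1 to 2 higher and 1 to 2 lower when a library was left out. Other Irf genes numbered 0 in limma-voom, 0 at an adjusted p under 0.01, 2 with no filter and 0 to 1 when a library was left out, where receptors and kinases numbered 0 to 1 and epithelial markers 0 to 1. The cause of these shifts was not tested, beyond fewer libraries or other genes entering a fit. No paired analysis was possible because the count columns carry no replicate number. A library left alone in its group is assumed to vary like the other group. With 1 read at about 0.04 CPM, differences in Oas1g, Oas2 and Mx1 were not detectable.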
